A study of Mus musculus with 6 samples.

Results

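The genes described here encode the enzymes that add acetyl groups to lysines, the enzymes that remove them, and the bromodomain proteins that bind acetylated lysines. They were chosen by name: 16 acetyltransferases (writers), 17 deacetylases (erasers) and 8 bromodomain proteins (readers), or 41 genes in all. The array names 19057 genes. CBP and p300, the acetyltransferases that were deleted, stand outside this list. Of the 41 genes, 38 had a probe of that name or of an older name of the same Entrez gene, with 79 probes in all, and 33 had at least 1 probe that passed the filter on dim signals and was tested (56 probes). Hdac1, Naa10 and Brpf3 had no named probe and have no value here.

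Lysine acetylation of histones is reversible. Acetyltransferases take the acetyl group from acetyl-CoA and fall into families that work inside large complexes, among them the GNAT family (in SAGA, ATAC and Elongator), the MYST family (in NuA4, MSL, NSL and the HBO1 and MOZ complexes) and the KAT3 pair CBP and p300. Deacetylases either depend on zinc (the Hdac genes, in classes I, IIa, IIb and IV) or on NAD+ (the sirtuins), and many also act on proteins other than histones. Bromodomain proteins bind acetyl-lysine and bring transcription, remodelling or further acetyltransferase complexes to it. CBP and p300 are the writers best known for acetylating the tail of histone H3 at active enhancers and promoters.

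The lens placode region of E10.5 mouse embryos was laser microdissected, and amplified RNA was measured on 6 Illumina bead arrays, 3 of CBP/p300 double conditional knockout (DCKO) and 3 of wild type (WT). By the article's methods DCKO embryos were CBP/p300 fl/fl and carried Pax6-Cre, a transgene driven by a Pax6 lens enhancer and promoter in lens and corneal precursor ectoderm, and the embryos called WT were CBP/p300 fl/fl without Pax6-Cre. All were on a mixed FVB and 129 background. The sample records name the DCKO tissue surface ectoderm and the WT tissue lens placode, so the samples differ in tissue name as well as in genotype. What a replicate was is not settled. In the article each genotype had 3 embryos as biological replicates, but by the records RNA was first pooled within a genotype and then amplified 3 times. If the second holds, p-values and confidence intervals measure only the technical spread between arrays.

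Depth and tissue were checked once for all genes. Between 18724 and 19551 probes were detected (detection p under 0.05 against the negative controls of the array) on DCKO arrays and 18081 to 19769 on WT arrays. Correlations over the tested probes were 0.878 to 0.883 among DCKO arrays and 0.930 to 0.934 among WT arrays, so DCKO arrays varied more. All 6 arrays lay on 1 chip. Of 7 tested lens markers, 5 were lower and 0 higher in DCKO, and their mean log2 level was 7.24 to 7.62 on DCKO arrays and 10.63 to 10.72 on WT arrays. Of 8 tested markers of non-lens surface ectoderm and epithelium, 3 were higher and 0 lower in DCKO, with a mean level of 8.90 to 9.28 on DCKO arrays and 7.61 to 7.83 on WT arrays. Of 7 tested macrophage markers, 3 were lower and 0 higher, with a mean level of 4.99 to 5.48 on DCKO arrays and 7.31 to 7.86 on WT arrays, while Fcer1g and C1qa were detected on no array. The dimmest detected signal was 5.38 to 5.46 on DCKO arrays, so the macrophage level there lay near the background. Of 3 tested erythroid markers 1 was lower, of 3 periocular mesenchyme markers 1 was lower and 1 higher, and of 3 endothelial and 2 optic vesicle markers 0 were called (limma, with 1 of each at an unadjusted p under 0.05). The part of this tissue difference in the values of the acetylation genes was not tested. In bulk tissue, fewer cells of a type and less RNA per cell cannot be told apart.

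The deleted genes were measured by 7 tested probes. For Ep300, which encodes p300, a probe was undetected on all 3 DCKO arrays, at 4.92, 4.67 and 5.26, and detected on all 3 WT arrays, at 6.59, 7.24 and 7.02. It was at least 2.87-fold lower in DCKO (adjusted p = 0.0159 from limma), a bound set by array background, and the call ended without WT replicate 2 (adjusted p = 0.0705) or WT replicate 3 (adjusted p = 0.0776) and with the replicate number as a block (adjusted p = 0.0760). A dimmer Ep300 probe was also undetected in DCKO and detected on every WT array, but did not pass (adjusted p = 0.0632). It was called lower with the authors' processed values (adjusted p = 0.0259) and with scaling to the 75th percentile (adjusted p = 0.0486). The other 2 Ep300 probes, the brightest among them, had log2 fold changes of -0.03 and -0.19. The 3 probes of Crebbp, which encodes CBP, had log2 fold changes of -0.76, -0.57 and -0.10 and did not pass. Its brightest probe was at 7.33, 7.52 and 6.61 in DCKO and 7.80, 7.75 and 8.19 in WT, with no overlap (adjusted p = 0.233). The positions of these probes relative to the deleted part of each gene are not given in the sources used here, so whether they check the deletion is unknown. The article's own check was of protein. It reports less CBP and p300 by immunostaining in DCKO ectoderm of an earlier stage, with Le-Cre instead of Pax6-Cre.

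None of the 33 tested acetylation genes passed the test between DCKO and WT in either direction, each gene being given by its brightest tested probe. Over all genes 4.88% were called (2.78% lower and 2.1% higher, 494 of 10123 genes, limma with Benjamini-Hochberg adjusted p under 0.05). With limma's trend and robust moderation 2 members were called higher (Elp3 and Brd3). At an unadjusted p under 0.05, 3 of 33 members passed (Brd1 and Hdac6 higher, Kat8 lower), where all genes had 21.2%. The 3 DCKO arrays and the 3 WT arrays did not overlap for 6 of 33 members (Hdac6, Brd1, Elp3 and Brd3 higher, Kat8 and Ncoa2 lower), where all genes had 29.1% (14.4% higher and 14.6% lower). The same held by probe, with 0 of 56 called where all probes had 4.58%, 7 of 56 at an unadjusted p under 0.05 where all probes had 20.5%, and 12 of 56 without overlap where all probes had 27.4%.

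On the log2 scale, DCKO minus WT, the members ran from -0.76 (Kat6b) to 1.14 (Hdac6), with a median of 0.018, and 17 lay above 0 and 16 below. All 10123 tested genes, a far larger number, ran from -6.87 to 5.14 with a median of 0.012. Of these, 80.0% lay between the lowest and highest member. The median was -0.19 for 12 writers, 0.098 for 14 erasers and 0.062 for 7 readers, and these medians carry no test. A fitted change of at least 1 was found for 2 of 33 members, Hdac6 and Kat5, where all genes had 17.2%. By probe the members ran from -2.87 (Brd8) to 1.14 (Hdac6), and 6 of 56 probes changed by at least 1 where all probes had 17.3%. A missed threshold does not show equal levels, so the intervals are given as well. They rest on the same spread between arrays as the p-values, and share their limit if RNA was pooled before amplification. For 8 members (Brd2, Brd3, Brd7, Brd8, Elp3, Hat1, Hdac2 and Hdac3) the 95% confidence interval lay within 1 log2 unit of 0 on both sides, where all genes had 31.4%. For the rest, a change of 1 log2 unit in at least 1 direction was within the interval. The intervals of the 8 are of the brightest probe alone. Dimmer tested probes reached -2.87 for Brd8 and 1.08 for Brd7, and the dimmer Elp3 probe had an interval of -0.25 to 1.34.

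**Figure D1:**
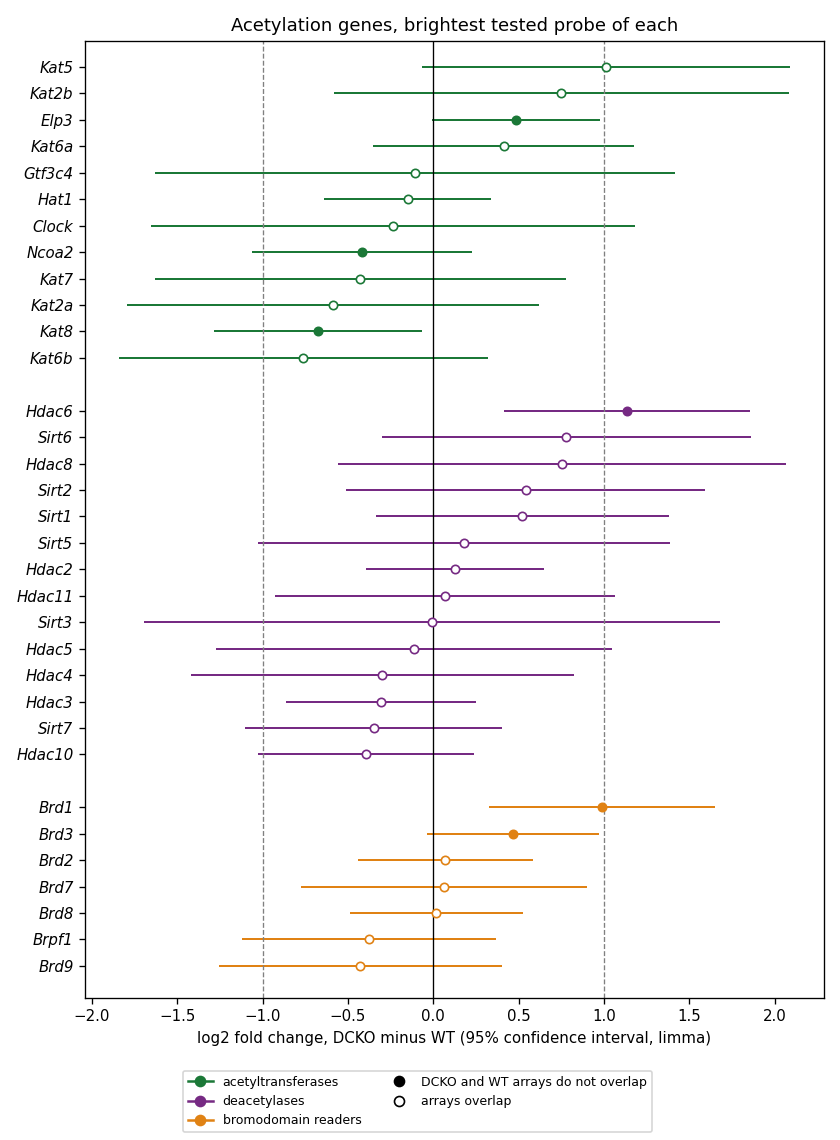
Log2 fold change, DCKO minus WT, of the brightest tested probe of each of 33 acetylation genes (points, x axis) with limma's 95% confidence interval (lines), grouped as acetyltransferases, deacetylases and bromodomain readers. Filled points are the 6 genes whose DCKO and WT arrays did not overlap, and the dashed lines mark a change of 1 in either direction, which the intervals of 8 genes do not reach.

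**Figure D2:**
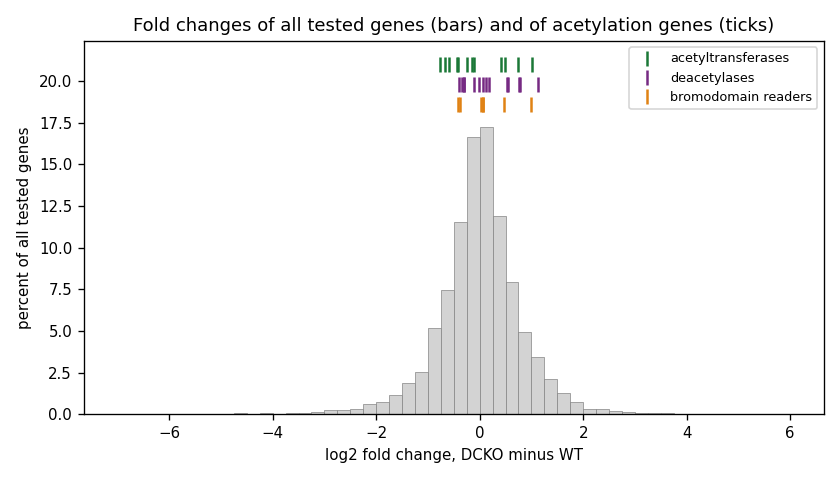
Distribution of the log2 fold change, DCKO minus WT, over 10123 tested genes (grey bars, percent of genes per bin) with the 33 acetylation genes as coloured ticks above. The ticks run from -0.76 to 1.14 and the bars, of far more genes, from -6.87 to 5.14. Of all tested genes, 80.0% lay between the lowest and highest tick.

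Among the writers, the GNAT enzymes had no direction in common. Elp3, the catalytic subunit of Elongator, which modifies the wobble uridine of transfer RNAs, was at normalized log2 levels of 12.05, 12.06 and 12.29 in DCKO and 11.67, 11.61 and 11.67 in WT. Every DCKO array lay above every WT array, and the spread within a genotype was small. The log2 fold change was 0.48 (95% confidence interval -0.01 to 0.98, adjusted p = 0.251 from limma), and the dimmer Elp3 probe gave 0.55 with 2 DCKO arrays within the WT range. Kat2a and Kat2b, the paralogous enzymes of SAGA and ATAC also known as GCN5 and PCAF, were near the limit of detection. Kat2a was at 5.91, 7.01 and 5.29 in DCKO, detected on 2 of 3 arrays, and 7.27, 6.49 and 6.21 in WT. Kat2b was at 5.39, 7.44 and 5.93 in DCKO and 5.91, 5.61 and 4.99 in WT, detected on 2 of 3 WT arrays. The genotypes overlapped for both, at log2 fold changes of -0.59 for Kat2a and 0.75 for Kat2b, and the intervals, -1.79 to 0.62 for Kat2a and -0.58 to 2.08 for Kat2b, span changes of over 1 log2 unit.

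Of the 5 MYST enzymes, 2 had fitted values above 0 and 3 below. Kat8 (MOF), which acetylates histone H4 within the MSL and NSL complexes, was at 7.75, 7.19 and 7.26 in DCKO and 7.87, 8.13 and 8.24 in WT. The genotypes did not overlap, although DCKO replicate 1 came close to WT replicate 1. Its log2 fold change was -0.68 (95% confidence interval -1.29 to -0.07, unadjusted p = 0.0339, adjusted p = 0.197 from limma). Kat6b, which with Kat6a forms the MOZ and MORF pair that acetylates histone H3, was at 8.37, 9.59 and 7.90 in DCKO and 9.13, 9.42 and 9.60 in WT. DCKO replicate 2 lay within the WT range, and the other 3 tested Kat6b probes had log2 fold changes of -0.32, -0.03 and 0.04. Kat6a was at 8.34, 9.26 and 8.63 in DCKO and 8.55, 7.99 and 8.45 in WT, again with overlap (log2 fold change 0.41, 95% confidence interval -0.35 to 1.18).

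Kat5 (TIP60), the enzyme of NuA4, and Kat7 (HBO1), the enzyme of the HBO1 complex, each had 2 tested probes. These differed in direction for Kat5 and in size alone for Kat7. The brighter Kat5 probe was at 7.18, 8.37 and 6.90 in DCKO and 6.93, 6.02 and 6.46 in WT, a log2 fold change of 1.01 (adjusted p = 0.270 from limma). The dimmer one was at 5.82, 5.77 and 6.49 in DCKO and 6.26, 6.61 and 6.96 in WT, a log2 fold change of -0.58 (adjusted p = 0.355). The genotypes overlapped on both probes, so no direction for Kat5 held against the spread. For Kat7 both probes pointed down, the brighter by -0.43 with overlap (7.06, 6.89 and 8.25 in DCKO, 7.10 to 8.54 in WT) and the dimmer by -1.20 without it. The dimmer Kat7 probe was at 6.09, 5.62 and 6.47 in DCKO and 6.95, 7.39 and 7.44 in WT, and had the lowest adjusted p of the 56 tested probes (0.0806 from limma, 95% confidence interval -1.92 to -0.49).

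Hat1, which acetylates newly made histone H4 before its deposition into chromatin, had the narrowest interval of the writers. Its log2 level was 11.52, 11.44 and 11.51 in DCKO and 11.51, 11.71 and 11.70 in WT. The genotypes overlapped, and the difference was -0.15 with a 95% confidence interval of -0.64 to 0.34. Naa50, an enzyme that acetylates the N termini of proteins, had 1 probe, detected on 1 DCKO array and 1 WT array, and was not tested.

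The writer group also holds 5 genes of coactivators or transcription factors with reported acetyltransferase activity. Ncoa2, a p160 coactivator of nuclear receptors, was at 7.35, 7.89 and 8.15 in DCKO and 8.25, 8.17 and 8.22 in WT. The DCKO arrays all lay below the WT arrays, DCKO replicate 3 narrowly so, with a log2 fold change of -0.42 (95% confidence interval -1.06 to 0.23, adjusted p = 0.442 from limma), and its dimmer tested probe gave -0.01 with overlap. Clock, the circadian transcription factor, was at 7.53, 7.42 and 9.61 in DCKO and 8.47, 8.53 and 8.27 in WT, so that DCKO replicate 3 stood above every WT array and the other DCKO arrays below. Gtf3c4, a subunit of the RNA polymerase III factor TFIIIC, was at 8.56, 7.48 and 6.13 in DCKO and 6.87, 7.97 and 7.66 in WT, with DCKO arrays on either side of the WT range. The fitted differences of Clock and Gtf3c4, -0.24 and -0.11, had intervals from -1.66 to 1.18 and from -1.63 to 1.41. The 2 dimmer Clock probes gave -0.11 and -0.61, and the dimmer Gtf3c4 probe gave 0.24. Ncoa1 was detected on 1 DCKO array and 0 WT arrays, and Ncoa3 on no array, so neither was tested.

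Among the erasers, 2 of the 3 tested class I genes had intervals within 1 log2 unit of 0. Hdac2, a catalytic subunit of the Sin3, NuRD and CoREST complexes, was at 12.67, 12.44 and 12.32 in DCKO and 12.43, 12.41 and 12.21 in WT. The ranges overlapped, with a log2 fold change of 0.13 (95% confidence interval -0.40 to 0.65). Hdac3, the enzyme of the NCoR and SMRT complexes, was at 10.19, 10.27 and 10.70 in DCKO and 10.69, 10.67 and 10.72 in WT. Replicates 1 and 2 of DCKO lay below the WT range and replicate 3 within it (log2 fold change -0.31, 95% confidence interval -0.86 to 0.25, adjusted p = 0.521 from limma). Hdac8, a class I enzyme that deacetylates the cohesin subunit Smc3, was at 5.34, 6.92 and 7.12 in DCKO and 6.37, 5.29 and 5.46 in WT, detected on 2 DCKO arrays and 1 WT array. The 2 dimmer tested Hdac8 probes gave 0.12 and -0.16, so the fitted 0.76 of the brightest was not seen on the others.

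Hdac6, a cytoplasmic class IIb enzyme that deacetylates alpha-tubulin, had the largest fitted difference of the 33 genes. It was at 8.43, 7.92 and 7.80 in DCKO and 6.68, 7.35 and 6.72 in WT, detected on all 6 arrays. Every DCKO array lay above every WT array, and the mean level was 8.05 ± 0.34 in DCKO and 6.92 ± 0.38 in WT (SD, n = 3 each). The log2 fold change was 1.14, or 2.20-fold (95% confidence interval 0.42 to 1.86, unadjusted p = 0.00775), which did not pass after adjustment (adjusted p = 0.0933 from limma). Hdac6 had a single probe, so no second probe could be set beside it. Hdac10, the other class IIb gene, whose enzyme deacetylates polyamines, was at 5.54, 5.10 and 5.22 in DCKO and 5.31, 5.79 and 5.93 in WT, detected on 1 DCKO array and 2 WT arrays. Hdac11, the class IV gene, was at 6.30, 5.33 and 6.45 in DCKO and 6.56, 5.79 and 5.51 in WT. Both overlapped between genotypes, with fitted differences of -0.39 for Hdac10 and 0.07 for Hdac11.

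The class IIa genes, which encode repressors with little deacetylase activity of their own that recruit other enzymes, were mostly dim. Hdac5 was at 8.04, 8.75 and 7.28 in DCKO and 7.41, 8.30 and 8.70 in WT, and its 2 tested probes gave log2 fold changes of -0.11 and 0.03. Hdac4 was at 5.32, 5.37 and 6.52 in DCKO and 6.74, 5.92 and 5.44 in WT, detected on 1 DCKO array and 2 WT arrays, with a log2 fold change of -0.30. Neither had a direction that held against its spread. Hdac7 was detected on 0 DCKO arrays and 2 WT arrays, at 5.32, 4.62 and 4.67 in DCKO and 6.01, 4.81 and 5.59 in WT, and was not tested. None of the 4 Hdac9 probes was detected on more than 1 array, so none passed the filter and Hdac9 was not tested.

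All 6 sirtuin genes were tested, 4 with fitted values above 0 and 2 below, and the genotypes overlapped for each. Sirt1, a nuclear deacetylase of histones and transcription factors, was at 7.57, 8.42 and 8.65 in DCKO and 7.29, 7.90 and 7.89 in WT (log2 fold change 0.52, 95% confidence interval -0.33 to 1.38, adjusted p = 0.473 from limma). Sirt6, a chromatin-bound deacetylase of histone H3, was at 7.41, 7.21 and 6.45 in DCKO and 6.77, 6.58 and 5.39 in WT. Its fitted difference of 0.78 (95% confidence interval -0.30 to 1.86) was not shared by its dimmer tested probe, at 0.04. Sirt7, found in the nucleolus, was at 7.34, 8.16 and 8.11 in DCKO and 7.90, 8.29 and 8.47 in WT, a log2 fold change of -0.35. Sirt2, which is mainly cytoplasmic, was at 7.22, 6.10 and 5.57 in DCKO and 5.51, 5.98 and 5.77 in WT, with DCKO replicate 1 above the rest and a log2 fold change of 0.54. Sirt3 and Sirt5, whose proteins are mitochondrial, were each detected on 2 DCKO arrays and 2 WT arrays by their brightest probe. The 2 tested Sirt5 probes gave 0.18 and 0.19. Sirt3 had the widest interval of the 33 genes, -1.69 to 1.68 around a fitted -0.01, since WT replicate 2 was at 7.59 and the other WT arrays at 5.58 and 5.24. Of 14 tested erasers, 7 were detected on all 6 arrays, beside 10 of 12 writers and 7 of 7 readers, or 24 of 33 members where all genes had 72.1%.

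**Figure D3:**
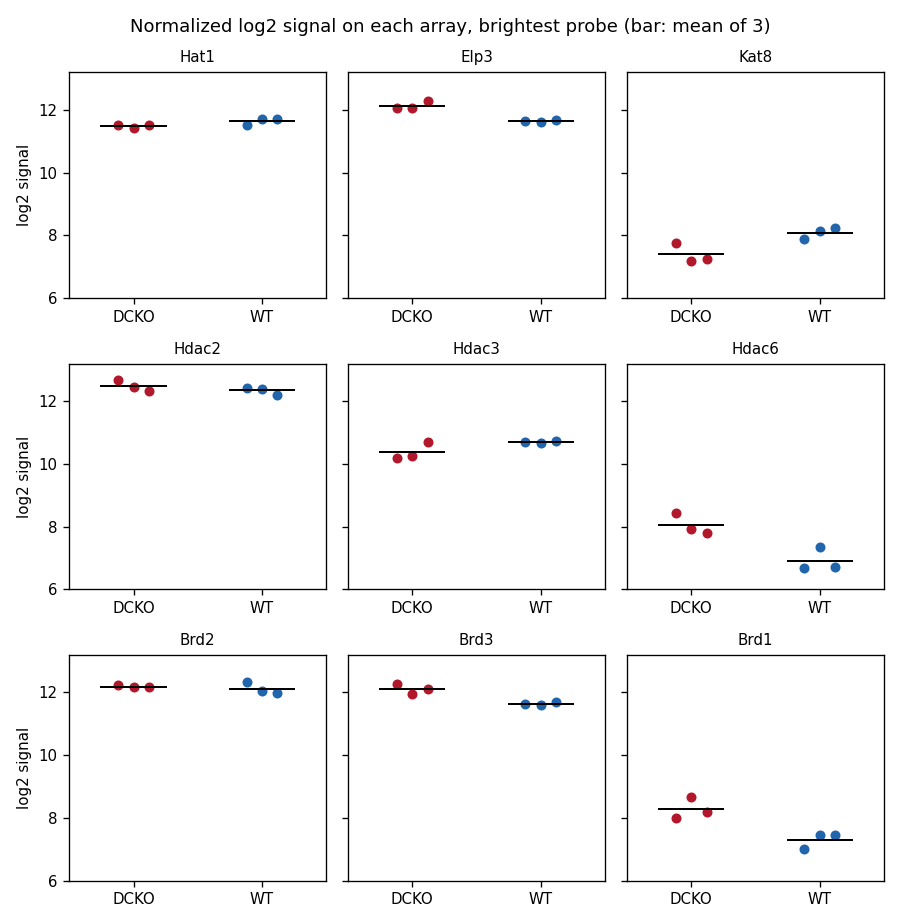
Normalized log2 signal of the brightest probe of 9 acetylation genes on each array (points, DCKO red on the left and WT blue on the right of each panel), with the mean of 3 arrays as a bar. Hat1, Hdac2, Hdac3 and Brd2 overlapped between genotypes, while Elp3, Hdac6, Brd3 and Brd1 lay higher and Kat8 lower on every DCKO array, and no gene shown passed the adjusted test.

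Of the readers, the BET genes gave some of the narrowest intervals. BET proteins carry tandem bromodomains and bind acetylated histone H4 at transcribed genes. Brd2 was at 12.23, 12.16 and 12.17 in DCKO and 12.33, 12.04 and 11.98 in WT, with a log2 fold change of 0.07 (95% confidence interval -0.44 to 0.58). Brd3 was at 12.27, 11.96 and 12.10 in DCKO and 11.65, 11.59 and 11.69 in WT, so every DCKO array lay above every WT array. Its log2 fold change was 0.47 (95% confidence interval -0.04 to 0.97, adjusted p = 0.274 from limma). The calls of Elp3 and Brd3 under trend and robust moderation had adjusted p-values of 0.0313 and 0.0423.

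The BRPF genes encode scaffolds that hold MYST enzymes to chromatin. Brd1 (BRPF2), a scaffold of HBO1, had 2 tested probes that moved apart. The brighter was at 8.00, 8.67 and 8.19 in DCKO and 6.99, 7.45 and 7.46 in WT, higher in DCKO on every array, with a log2 fold change of 0.99 (95% confidence interval 0.33 to 1.65, adjusted p = 0.106 from limma). The dimmer was at 6.50, 4.75 and 6.19 in DCKO, undetected on replicate 2, and 6.96, 8.50 and 7.43 in WT, lower in DCKO on every array, with a log2 fold change of -1.82 (95% confidence interval -3.21 to -0.42, adjusted p = 0.142). Brd1 thus has no single direction in these data, and a ratio between the probes was not tested. Brpf1, the scaffold of MOZ and MORF, likewise gave -0.38 on the brighter probe (7.05, 7.34 and 7.60 in DCKO, 8.04, 7.90 and 7.19 in WT) and 0.43 on the dimmer, with overlap on both.

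The remaining readers are subunits of remodelling and acetyltransferase complexes. Brd7, a subunit of the PBAF form of SWI/SNF, was at 9.05, 8.80 and 7.93 in DCKO and 8.83, 8.39 and 8.37 in WT by its brighter probe, a log2 fold change of 0.06. Its dimmer probe was at 8.31, 8.36 and 8.90 in DCKO and 7.87, 7.07 and 7.39 in WT, without overlap, a log2 fold change of 1.08 (95% confidence interval 0.35 to 1.81, adjusted p = 0.108 from limma). Brd9, of the non-canonical BAF form, was at 8.27, 7.61 and 8.79 in DCKO and 8.86, 8.69 and 8.39 in WT, and its 2 probes gave -0.43 and -0.51, close to each other. The second of these did not overlap between genotypes (8.29, 7.62 and 8.46 in DCKO, 8.71, 8.61 and 8.59 in WT, adjusted p = 0.367).

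Brd8, a subunit of NuA4, had 5 tested probes, the most of any member. The brightest was at 10.23, 10.19 and 10.20 in DCKO and 10.19, 10.01 and 10.36 in WT, a log2 fold change of 0.02 (95% confidence interval -0.49 to 0.53). The others gave -0.70, -0.32, -2.87 and -0.16. On 2 of the 5 probes, the one at -2.87 among them, every DCKO array lay below every WT array. The probe at -2.87 was at 7.97, 4.71 and 4.61 on DCKO arrays, where it was detected on replicate 1 alone, and at 8.80, 8.33 and 8.77 on WT arrays. DCKO replicate 1 thus lay close to the WT level and the other DCKO arrays at background. With all arrays the adjusted p was 0.133 (limma), and without DCKO replicate 1 the log2 fold change was -3.97 with an adjusted p of 0.00704, so this call rests on whether that array is kept. The brightest Brd8 probe showed no such gap between replicates.

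**Figure D4:**
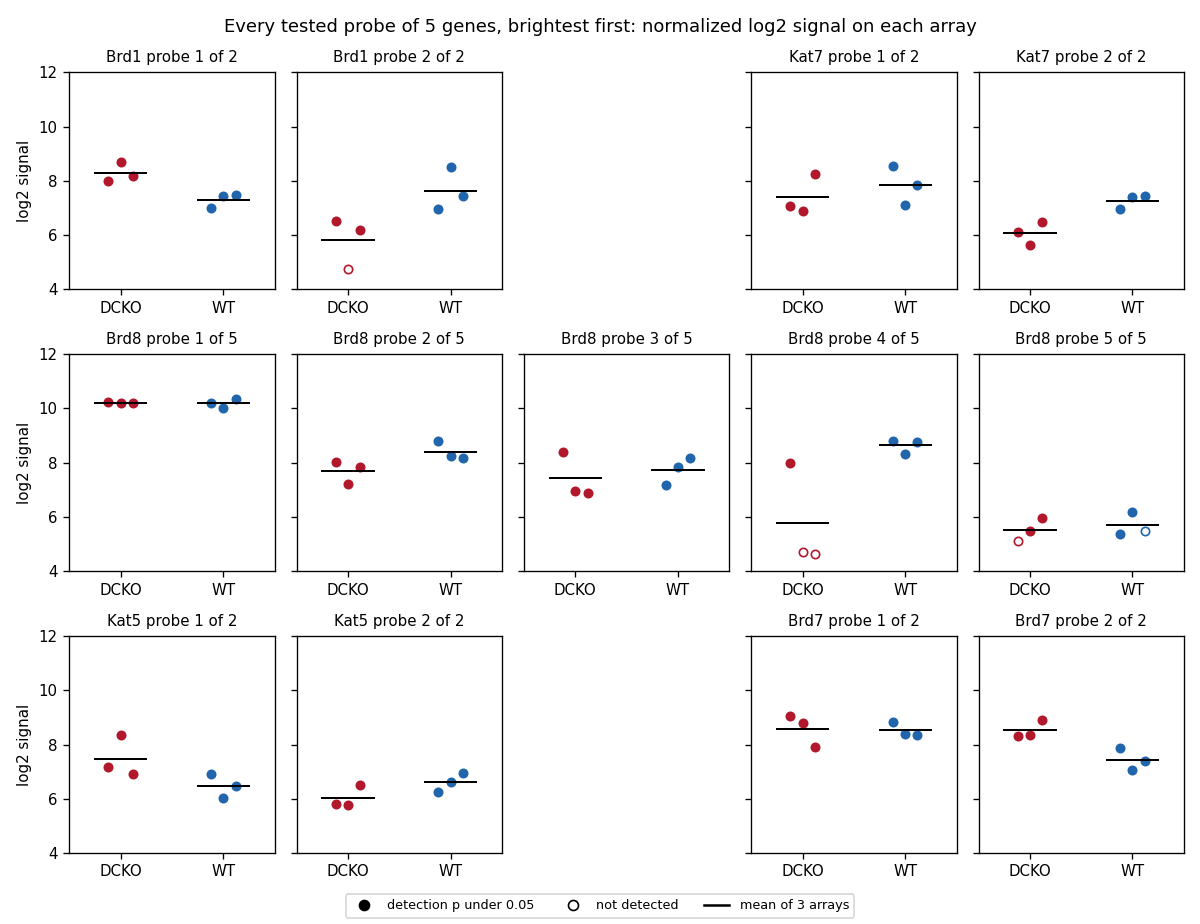
Normalized log2 signal of every tested probe of Brd1, Kat7, Brd8, Kat5 and Brd7 on each array (DCKO red on the left, WT blue on the right, bar at the mean of 3, open points undetected), ordered within a gene from the brightest probe. The 2 Brd1 probes differed in opposite directions without overlap (0.99 and -1.82), and Brd8 ran from 0.02 on probe 1 to -2.87 on probe 4.

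Of the 16 members with more than 1 tested probe, 8 had probes with fitted values of opposite sign (Brd8, Brd1, Kat5, Hdac8, Brpf1, Kat6b, Gtf3c4 and Hdac5). The gap between the highest and lowest probe was 2.89 log2 units for Brd8, 2.81 for Brd1, 1.60 for Kat5 and 1.02 for Brd7, and ran down to 0.02 for Sirt5. The remaining 17 tested members had 1 tested probe each and could not be checked in this way. Whether the probes of a gene hit different transcripts is not given in the sources used here.

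Lists of partner genes, 4 in all, were read by the same fit, each gene again by its brightest tested probe. Of 44 tested subunits of writer complexes (SAGA, ATAC, NuA4, HBO1, MOZ, MSL, NSL and Elongator), 0 were called, with 22 of 44 fitted values above 0 and a median of 0.01. By limma 6 of the 44 had an unadjusted p under 0.05, and 9 did not overlap between genotypes. Of 31 tested subunits of eraser complexes (Sin3, NuRD, CoREST, NCoR and SMRT), 1 was lower and 0 higher, 7 had an unadjusted p under 0.05 by limma and 11 did not overlap, with a median of 0.20. Of 20 tested further bromodomain and YEATS readers, 1 was higher and 0 lower, 7 had an unadjusted p under 0.05 by limma and 11 did not overlap, with a median of 0.01. Of 14 tested genes that supply acetyl-CoA and NAD+, 0 were called, 3 had an unadjusted p under 0.05 by limma and 4 did not overlap, with a median of 0.29. All tested genes had 4.88% called, 21.2% at an unadjusted p under 0.05, 29.1% without overlap and a median of 0.01.

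The called eraser subunit was Tbl1xr1, which exchanges corepressors for coactivators within the NCoR and SMRT complexes. It was at 7.68, 6.69 and 8.06 in DCKO and 10.21, 9.96 and 10.05 in WT, and thus lower on every DCKO array. Tbl1xr1 fell 6.06-fold in DCKO (log2 fold change -2.60, standard error 0.38, adjusted p = 0.0179 from limma), while its 2 dimmer probes, at -0.97 and -1.19, did not pass. The call ended without WT replicate 1, 2 or 3 (adjusted p = 0.0775, 0.0722 and 0.0788). The called reader was Brwd3, a protein with tandem bromodomains and WD repeats, at 10.42, 10.52 and 10.68 in DCKO and 9.56, 9.40 and 9.53 in WT. Brwd3 rose 2.06-fold (log2 fold change 1.04, standard error 0.21, adjusted p = 0.0457), its 2 dimmer probes gave 1.15 and 0.95 and did not pass, and the call ended without any 1 of the 6 arrays (adjusted p = 0.0721 to 0.156).

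Of the partner genes, 5 more had a dimmer probe that was called while the brightest probe was not. They were found by reading every tested partner probe, and the share of partner probes called was not computed. Over all probes 4.58% were called (895 of 19552), so the count of 5 is not read as a result. Arid4a, a subunit of the Sin3 complex, was higher in DCKO on the dimmest of its 4 tested probes, at 7.76, 8.48 and 7.79 in DCKO and 5.28, 5.63 and 5.64 in WT (log2 fold change 2.49, adjusted p = 0.00782 from limma). Its other 3 probes gave 0.10, 0.15 and 0.15, with overlap between genotypes on each. Rbbp4, a histone chaperone in the Sin3 and NuRD complexes, had a probe at 8.86, 7.13 and 7.15 in DCKO and 4.80, 4.88 and 4.81 in WT, where no array detected it. This probe was at least 4.84-fold higher in DCKO (adjusted p = 0.0289 from limma), and the other 3 Rbbp4 probes, the brightest at -0.41, did not pass. The fitted values of the 4 Arid4a probes thus all lay above 0, but only the dimmest had an interval that left out 0. Those of the 4 Rbbp4 probes lay on either side of 0.

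Among the further readers, Brwd1, a paralogue of Brwd3, was lower on 1 of 5 probes, at 5.89, 6.19 and 5.74 in DCKO and 7.74, 7.06 and 7.59 in WT (log2 fold change -1.52, adjusted p = 0.0355 from limma), and its brightest probe gave 0.0032. For Baz2b, a bromodomain protein of the BAZ family, both probes pointed up. The dimmer was called (8.67, 9.29 and 9.26 in DCKO, 7.87, 7.81 and 7.78 in WT, log2 fold change 1.25, adjusted p = 0.0463 from limma) and the brighter, at 1.23, missed narrowly (adjusted p = 0.0555). Nampt, the rate-limiting enzyme of NAD+ salvage, was higher on its dimmer probe, at 8.30, 7.48 and 8.11 in DCKO and 6.34, 6.16 and 6.69 in WT (log2 fold change 1.57, adjusted p = 0.0417 from limma), while the brighter gave 0.22 with overlap. Leaving out 1 array at a time kept the call of the Arid4a probe (adjusted p = 0.0198 to 0.0433). The Rbbp4 call ended without any 1 WT array (adjusted p = 0.101 to 0.109), the Brwd1 call without any 1 of the 6 arrays (adjusted p = 0.0589 to 0.133), and the Baz2b and Nampt calls without any 1 array except DCKO replicate 1 for Baz2b and DCKO replicate 2 for Nampt (adjusted p = 0.104 to 0.156 for Baz2b and 0.0874 to 0.142 for Nampt).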

How the data were processed

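RNA of the laser-microdissected lens placode region, named surface ectoderm in the DCKO records, was amplified and hybridised to Illumina mouse bead arrays. The authors deposited an intensity per probe, the mean over its beads without background subtraction or normalization, and a detection p-value per probe. The labels name GenomeStudio, with no version. The authors also deposited processed intensity values, used as an alternative. Bead numbers and bead errors (12 columns) were not used.

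The deposited intensities were turned into log2 values by neqc of limma 3.58.1 in R 4.3.3, with an offset of 16 and quantile normalization. Of 45281 probes, 34885 had 1 gene symbol, 18 had several and 10378 had none here. Symbols were brought up to date by Entrez identifier (RefSeq, GRCm38.p6). A probe was tested if its detection p was under 0.05 on 3 or more arrays, which 19552 probes met. The test was limma's lmFit and eBayes with no block, adjusted over all tested probes by the Benjamini-Hochberg method. A gene is given by its tested probe with the highest mean over 6 arrays. For a fold bound, an undetected array counted at its dimmest detected signal, or at the probe's value if higher.

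All members are named, and of the partner lists the called genes. Partner genes called on a dimmer probe alone were named after their values were seen. Members, lists and this rule were chosen with earlier results of these data known. The fits were tested on simulated data. Alternatives changed the background correction, normalization, processed table, filter, variance model, array weights, replicate block, arrays kept and choice of probe. The number of arrays limits the precision.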

Additional observations from a re-analysis of the deposited data

How the results depend on the processing

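Acetylation genes called lower in DCKO numbered 0 under every alternative run, and genes called higher numbered 0 under all but 1, moderation with a trend and robust fitting, which called 2 (Elp3 and Brd3). Over all probes, 549 were lower and 346 higher, and trend and robust moderation raised this to 756 lower and 506 higher, the most of any alternative. With 1 array left out, 170 to 398 were lower and 59 to 222 higher, with 354 to 398 lower and 184 to 222 higher without a DCKO array and 170 to 211 lower and 59 to 81 higher without a WT array. The replicate numbers were shared by both genotypes, but same-numbered arrays did not deviate together (r = 0.0332, 0.0325 and 0.0105), and the replicate block, which leaves fewer degrees of freedom, called 156 lower and 49 higher. Of 665 recomputed fold changes of 37 genes, 609 kept their direction and side of the threshold, 2 passed newly, 14 no longer passed (Tbl1xr1 and Brwd3, whose alternatives were added after seeing the data) and 40 turned in direction, in 15 genes. With the replicate block the adjusted p was 0.0598 for Tbl1xr1 and 0.132 for Brwd3, and of the dimmer partner probes, added likewise, it was 0.0454 for Arid4a, 0.0811 for Rbbp4, 0.113 for Brwd1, 0.123 for Baz2b and 0.0890 for Nampt. Without the filter it was 0.0667 for Rbbp4, 0.0524 for Baz2b and 0.0629 for Nampt, and with trend and robust moderation 0.0700 for Brwd1 and 0.0584 for Nampt. Without background correction it was 0.0661 for Rbbp4 and 0.0532 for Brwd1. With the processed values it was 0.0544 for Baz2b and 0.0556 for Brwd3, and without normalization between arrays 0.0559 for Nampt and 0.0527 for Brwd3.

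By the probe brightest in WT, Kat5 was at -0.58 and Brd1 at -1.82. By the mean of a gene's probes, Brd1 was at -0.41, Brd8 at -0.81, Brpf1 at 0.027 and Gtf3c4 at 0.065. These settings use other probes of the gene. Without normalization between arrays, which moved the median of all probes by 0.12, Clock was at 0.0080, Gtf3c4 at 0.069, Hdac5 at 0.12 and Ep300 at 0.15. Without background correction Gtf3c4 was at 0.011. With the authors' processed values Hdac11 was at -0.0084 and Sirt3 at 0.15, and with scaling to the 75th percentile Hdac11 was at -0.065 and Brd2 at -0.012. With 1 array left out, fold changes ran from -0.95 to 0.15 for Clock, -0.69 to 0.52 for Gtf3c4, -0.034 to 1.32 for Hdac8, -0.69 to 0.055 for Hdac4, -0.48 to 0.26 for Hdac5, -0.15 to 0.42 for Hdac11, -0.46 to 0.72 for Sirt3, -0.23 to 0.61 for Sirt5, -0.17 to 0.40 for Brd7, -0.071 to 0.11 for Brd8 and -0.67 to 0.38 for Ep300. The cause was not tested. Of the 33 tested acetylation genes, 24 were detected on all 6 arrays, and for the others the array background limits the difference that could be seen.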
